A study of Mus musculus with 12 samples.

Results

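The MCM helicase and origin licensing genes examined here are Mcm2, Mcm3, Mcm4, Mcm5, Mcm6, Mcm7, Mcm10, Cdc6, Cdt1 and Cdc45. They were picked by name, with earlier results of these data known, and the 10 genes stand among 26219 mouse genes with a curated RefSeq transcript. A gene's rows were those that name it as nearest to a called peak of Jmjd2a (Kdm4a) or Jmjd2c (Kdm4c), or in the authors' deposited table of start sites bound by both. The Jmjd2a list named 4 of the 10 genes in 4 rows, the Jmjd2c list 9 genes in 12 rows, and the table of sites bound by both 4 genes in 4 rows. None of the 10 genes lacked a row.

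DNA replication starts at origins that are prepared in G1 phase, before DNA synthesis. The origin recognition complex together with Cdc6 and Cdt1 loads the ring-shaped helicase made of Mcm2 to Mcm7 onto DNA, a step called licensing, and Cdc45 with the GINS complex and Mcm10 later turns the loaded ring into an active helicase. These genes are transcribed mostly around the start of S phase and are known targets of the E2F transcription factors.

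The cells were mouse leukaemic granulocyte-macrophage progenitors (L-GMP) transformed by the MLL-AF9 fusion and derived from leukaemic mice, on a C57BL/6 background. All of them carried the genotype Jmjd2a/b/cf/f;Rosa26::CreERT2, meaning floxed alleles of these 3 demethylase genes and, from the Rosa26 locus, a Cre recombinase that 4-hydroxytamoxifen switches on. Culture medium held 20% serum and interleukin-3 at 10 ng/ml. Chromatin came from untreated cells or from cells after 96 h in 500 nM 4-hydroxytamoxifen, which induces the deletion. The design holds 12 libraries in 8 groups, and Jmjd2a and Jmjd2c each have 1 library per condition, while the histone H3 marks H3K9me3 and H3K36me3 have 2.

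The files examined here hold positions of called peaks only, 8977 for Jmjd2a and 10521 for Jmjd2c, with no height and no value per library. Depth is therefore unknown, the effect of 4-hydroxytamoxifen and both histone marks were not analysed here, and neither the deletion nor the labelled cell type could be checked by expression. There is no replicate check for either list, and the libraries behind each list are unknown. Counts of genes below are descriptions, with no test.

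A peak was called near a gene when it lay within 1000 bp of a start site named for that gene in the files, and a gene with no start site named there counted as having none. By that measure Jmjd2c was near 9 of the 10 genes, where 37.9% of all genes had it, and Jmjd2a was near 5 of the 10, where 27.3% of all genes had it. Both proteins were near Mcm3, Mcm4, Mcm5 and Mcm7, all of the helicase core (4 of 10, against 24.5% of all genes). This count fell to 2 (16.5% of all genes) when a peak had to cover the start, and to 1 (9.99%) when only the wider 50% of peaks was kept. Jmjd2a then stood at 3 genes under either setting (18.8% and 16.5%), and Jmjd2c at 4 in the wider 50% (22.9%). Jmjd2c alone was near Mcm2, Mcm6, Cdc6, Cdt1 and Cdc45 (5 of 10, against 13.4%), and Jmjd2a alone was near Mcm10 (1 of 10, against 2.87%). No gene of the 10 had neither protein, where 59.3% of all genes had neither. All genes include many noncoding and predicted genes. Among 19947 protein-coding genes without predicted gene names, the shares were 46.2% for Jmjd2c, 33.4% for Jmjd2a and 50.3% for neither. Jmjd2c alone stood at 16.3% and Jmjd2a alone at 3.46%. Both proteins were near 5975 of these 19947 genes, a larger share than the 24.5% of all genes. The 4 of 10 with both thus lay closer to this background than to that of all genes.

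**Figure D1:**
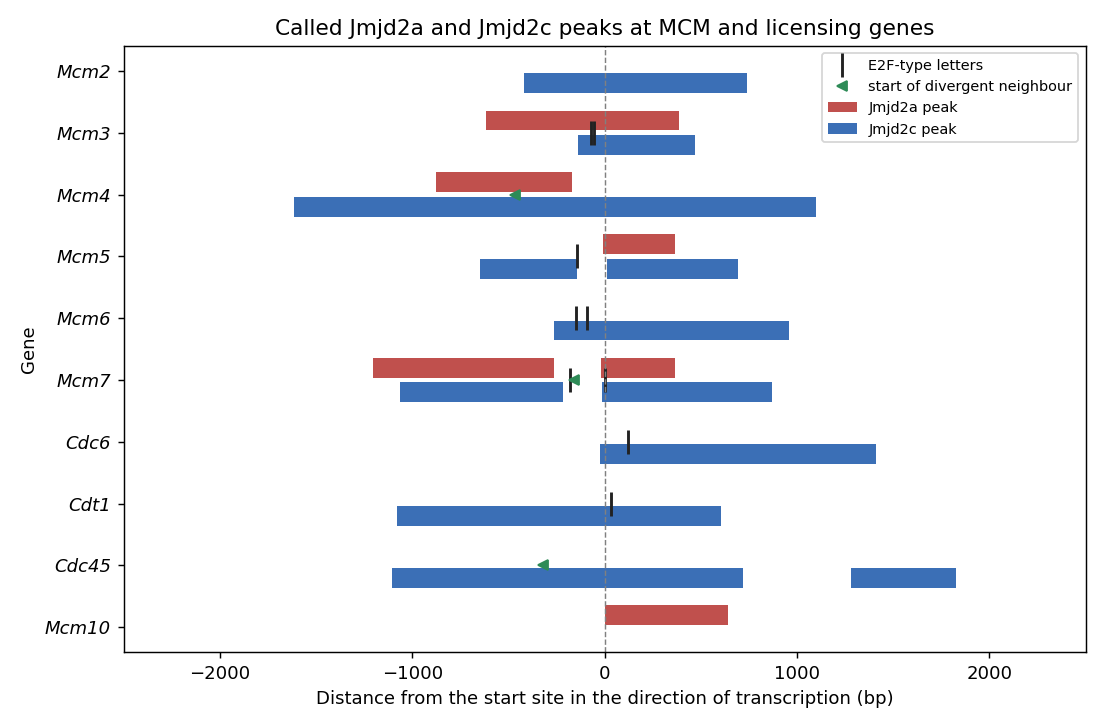
Called peaks of Jmjd2a (red) and Jmjd2c (blue) around the start site of each gene, in bp along the direction of transcription, with black ticks where the promoter holds E2F-type letters and green arrowheads at the start of a divergent neighbour. Red bars appear at 5 genes and blue bars at 9, and at Mcm5 and Mcm7 the blue bars leave an interval uncovered, which at Mcm5 holds the start.

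The helicase core genes had Jmjd2c near all 6 start sites and Jmjd2a near 4. At Mcm3 (gene ID 17215, chr1:20802966-20820312, minus strand, mm10) the Jmjd2a peak of 1004 bp (chr1:20819827-20820830) and the Jmjd2c peak of 610 bp (chr1:20819742-20820351) both covered the start site. The Jmjd2a peak reached 617 bp upstream and 386 bp downstream of the start, and the Jmjd2c peak 138 bp upstream and 471 bp downstream. Upstream of Mcm3, then, Jmjd2a was called over a longer stretch than Jmjd2c. This was the only one of the 4 genes with both proteins where the Jmjd2a peak was the wider of the pair, which held for 13.2% of the 6417 genes with both.

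Mcm4 (gene ID 17217, chr16:15623897-15637400, minus strand) lies head to head with Prkdc, which encodes the catalytic subunit of a DNA repair kinase, with 466 bp between the start sites. A Jmjd2c peak of 2714 bp (chr16:15636302-15639015) covered both starts. The Jmjd2a peak of 712 bp (chr16:15637567-15638278) lay within it, over the Prkdc start and 167 bp upstream of the Mcm4 start. The Mcm4 start itself thus had a Jmjd2c call and no Jmjd2a call, and the deposited list names the Jmjd2a peak for Prkdc and not for Mcm4. The authors' deposited table of start sites bound by both does name Mcm4. In bulk chromatin such a peak cannot be divided between the neighbours.

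At Mcm5 (gene ID 17218, chr8:75109468-75128439, plus strand) the start site fell between Jmjd2c calls. One Jmjd2c peak of 503 bp (chr8:75108863-75109365) ended 144 bp upstream of the start, and another of 679 bp (chr8:75109523-75110201) began 14 bp downstream of it, leaving 157 bp uncovered. A narrow Jmjd2a peak of 375 bp (chr8:75109502-75109876) covered the start and reached only 7 bp upstream. The promoter sequence is shown because the edge of the upstream Jmjd2c peak falls within an E2F-type match there. It is the plus strand of chr8:75109341-75109467 (GRCm38.p6), ending at the last base before the gene, and capitals mark the E2F-type letters and the CCAAT box, the usual site of the factor NF-Y.
Mcm5 upstream: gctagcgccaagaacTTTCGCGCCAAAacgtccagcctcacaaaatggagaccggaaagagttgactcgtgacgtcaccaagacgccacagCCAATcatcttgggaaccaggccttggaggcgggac

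Mcm7 (gene ID 17220, chr5:138164583-138172111, minus strand) showed the same kind of interrupted calls, here for both proteins. Its start lies 159 bp from that of the divergent gene Ap4m1, which encodes an adaptor protein of vesicle transport. On the Mcm7 side, a Jmjd2a peak of 385 bp (chr5:138171498-138171882) and a Jmjd2c peak of 885 bp (chr5:138170992-138171876) ended within 20 bp upstream of the Mcm7 start. On the Ap4m1 side, a Jmjd2a peak of 938 bp (chr5:138172127-138173064) and a Jmjd2c peak of 847 bp (chr5:138172080-138172926) began inside Ap4m1. The uncovered stretch between them was 244 bp in the Jmjd2a list and 203 bp in that of Jmjd2c, and the Ap4m1 start lay in both. So did the more upstream RefSeq start of Mcm7, while its start in the files did not.

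Mcm6 and Mcm2 had Jmjd2c and no Jmjd2a call nearby. The Jmjd2c peak of 1223 bp at Mcm6 (gene ID 17219, chr1:128331575-128359705, minus strand) spanned chr1:128358697-128359919 and covered the start, reaching 263 bp upstream and 959 bp downstream. The one at Mcm2 (gene ID 17216, chr6:88883474-88898780, minus strand) spanned 1163 bp (chr6:88898039-88899201), reaching 421 bp upstream and 741 bp downstream. At both genes the called stretch lay mostly inside the gene. The nearest Jmjd2a peaks were 115 kb from the Mcm6 start, where the list names Ubxn4, and 23.2 kb from the Mcm2 start, where it names Podxl2. A further Jmjd2c peak of 1712 bp, named for Tpra1, began 2622 bp upstream of Mcm2.

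The helicase loader genes Cdc6 and Cdt1 carried Jmjd2c only. Cdc6 (gene ID 23834, chr11:98907709-98923942, plus strand), an ATPase gene whose product joins the origin recognition complex, had a Jmjd2c peak of 1439 bp (chr11:98907863-98909301) over both of its start sites in the files. It began 26 bp upstream of the first start and reached 1412 bp into the gene, so nearly all of it lay downstream. A further Jmjd2c peak of 614 bp (chr11:98900638-98901251) is named for Cdc6 in the list, 6638 bp upstream, over an exon and 3′ untranslated region of Wipf2. The nearest Jmjd2a peak was 44.0 kb away.

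Cdt1 (gene ID 67177, chr8:122568015-122573130, plus strand), whose product brings the helicase ring to the origin and is blocked by geminin, had a Jmjd2c peak of 1688 bp (chr8:122566935-122568622). This peak lay the other way round from that of Cdc6, with 1080 bp upstream of the start and 607 bp downstream. The nearest Jmjd2a peak was 16.3 kb away, at Piezo1, the shortest such distance among the 5 genes with Jmjd2c alone. Over those 5 genes the distance to the nearest Jmjd2a peak ran from 16.3 to 115 kb with a median of 24.6 kb, beside a median of 42.5 kb over the 3508 genes with Jmjd2c alone. All 5 thus lay over 10 kb from a Jmjd2a peak, as did 87.9% of the 3508 genes.

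The helicase activation genes carried opposite single proteins. Cdc45 (gene ID 12544, chr16:18780447-18811972, minus strand), a subunit of the active helicase, had a Jmjd2c peak of 1827 bp (chr16:18811250-18813076) over both of its start sites in the files and over that of the divergent gene Ufd1 (named Ufd1l in the files), 322 bp from the upstream one. A second Jmjd2c peak of 546 bp (chr16:18810144-18810689) lay inside the gene, 950 bp from the downstream start. The nearest Jmjd2a peak was 24.6 kb from the upstream start.

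Mcm10 (gene ID 70024, chr2:4990724-5012791, minus strand), whose product binds the helicase when it is activated, was the reverse. Its Jmjd2a peak of 638 bp (chr2:5012152-5012789) began 2 bp downstream of the start and lay wholly inside the gene. The nearest Jmjd2c peak was 50.7 kb away, at Optn. Of the 7170 genes with Jmjd2a near a start, 753 had no Jmjd2c there, and Mcm10 was the only one of the 10 genes in that class. The bases upstream of Mcm10 and of Mcm2 (minus strand of chr2:5012792-5012911 and of chr6:88898781-88898980, GRCm38.p6) are shown because these genes have opposite single proteins and neither promoter held an E2F-type match. Capitals mark the CCAAT box, which reads ATTGG on the other strand.
Mcm10 upstream: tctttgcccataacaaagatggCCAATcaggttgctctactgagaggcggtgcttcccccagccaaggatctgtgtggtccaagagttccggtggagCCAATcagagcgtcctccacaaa
Mcm2 upstream: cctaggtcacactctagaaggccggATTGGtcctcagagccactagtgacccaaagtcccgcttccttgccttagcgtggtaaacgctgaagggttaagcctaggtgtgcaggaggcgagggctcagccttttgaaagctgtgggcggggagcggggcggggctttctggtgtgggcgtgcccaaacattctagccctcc

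Peaks at these genes varied widely in width, a measure of the length of the called stretch and not of signal. Taking for each gene the peak nearest to its start, the 5 Jmjd2a peaks had widths of 375 bp at Mcm5, 385 bp at Mcm7, 638 bp at Mcm10, 712 bp at Mcm4 and 1004 bp at Mcm3. Their median was 638 bp, beside 791 bp over the 7170 genes with Jmjd2a (interquartile range 552 to 1098 bp), and 4 of the 5 lay below that median. The 9 Jmjd2c peaks ran from 610 bp at Mcm3 to 2714 bp at Mcm4, with a median of 1223 bp beside 1426 bp over 9925 genes (interquartile range 1096 to 1792 bp). Mcm3, Mcm5 and Mcm7 stood at the 4.19, 6.34 and 13.9 percentiles of all genes with Jmjd2c, and Mcm4 at the 97.5 percentile. The Jmjd2c calls at Mcm5 and Mcm7 were split, and the further peak near Mcm7 is named for Ap4m1 and not for Mcm7. With all near Jmjd2c peaks of a gene summed, Mcm5 and Mcm7 had 1182 and 1732 bp. These sums were above Mcm2 (1163 bp) and Mcm6 (1223 bp) respectively, and Mcm3 remained the lowest at 610 bp. More than 1 Jmjd2c peak lay near the start of Mcm5, Mcm7 and Cdc45 (3 of 9 genes), where 4.56% of all genes with Jmjd2c had more than 1.

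**Figure D2:**
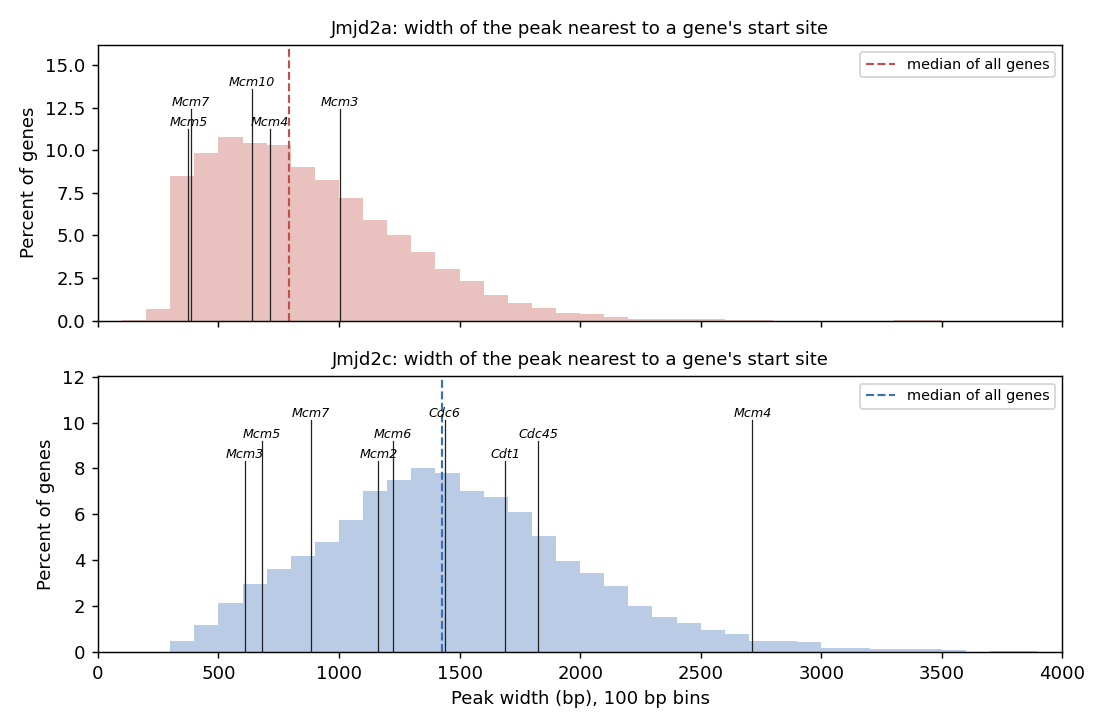
Histograms of peak width in bp, 1 peak per gene, over all genes with Jmjd2a (top) or Jmjd2c (bottom) near a start site, with the genes described here as labelled lines and the median of all genes dashed. The Jmjd2a widths at Mcm5 and Mcm7 (375 and 385 bp) sit at the narrow end, and the Jmjd2c widths spread from 610 bp at Mcm3 to 2714 bp at Mcm4.

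Where both proteins were near a start, their peaks overlapped. The Jmjd2a and Jmjd2c peaks shared 525 bp at Mcm3, 712 bp at Mcm4, 354 bp at Mcm5 and 379 bp at Mcm7, which is 86.1%, 100%, 94.4% and 98.4% of the shorter peak. Such shares are high wherever a narrow peak lies in a wider one, as at Mcm4, where the Jmjd2c peak was 2714 bp wide. Overlap was the rule across the genome too, at 97.0% of the 6417 genes with both, so the 4 of 4 here is no departure from it. The shared length had a median of 452 bp over the 4 genes, beside 751 bp over the 6417. The start site in the files was covered by Jmjd2c at 8 of 9 genes (93.3% of all genes with Jmjd2c), Mcm5 being the exception. Jmjd2a covered it at 3 of 5 (68.9% of all genes with Jmjd2a), with Mcm4 and Mcm10 the exceptions. At Mcm7 this depends on the start used, because its more upstream RefSeq start was covered by neither protein.

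Promoter sequences from RefSeq (GRCm38.p6, the primary assembly of mm10) run from 250 bases before to 50 bases after a start, and 9 of the 10 genes matched an entry by symbol. Mcm4 had none. E2F-type letters were searched as TTTCCCGC, TTTCGCGC, TTTGCCGC and TTTGGCGC on both strands, and overlapping matches were merged into 1 site. They were found in 6 of the 9 genes (Mcm3, Mcm5, Mcm6, Mcm7, Cdc6 and Cdt1), in 9 sites, while 2.26% of all 32851 promoters and 3.15% of the 19528 curated genes with an entry held them. Cdc45, Mcm2 and Mcm10 had no match in this window. Of the 9 sites, 8 lay at least partly under a Jmjd2c peak and 3 under a Jmjd2a peak, and the site under neither was the upstream one of Mcm7, in the uncovered stretch between the peaks. The search kept sites close to a start, and all 6 genes had Jmjd2c near a start, so most sites could be under Jmjd2c for that reason alone. The share of such sites under peaks was not taken over all genes.

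The E2F-type sites other than that of Mcm5 are shown to compare their letters, each 5′ to 3′ on the strand of the gene, with E2F-type letters and any CCAAT box in capitals. Mcm6 has a site 148 bp and another 89 bp upstream of its start in the files (minus strand of chr1:128359730-128359830), both under the Jmjd2c peak. The Mcm3 stretch (minus strand of chr1:20820266-20820295) holds 2 sites, 73 and 54 bp upstream of the start in the files and under both proteins, but inside the gene and 19 and 38 bases downstream of the RefSeq start. The Mcm7 sites (minus strand of chr5:138172030-138172059 and chr5:138171849-138171878) lie 179 bp upstream of the start and over its first bases. Relative to the more upstream RefSeq start of Mcm7 they lie 165 bases upstream and 16 bases downstream. The upstream one lies beyond the Ap4m1 start, inside that gene and also inside the RefSeq span of Mcm7. Those of Cdc6 (plus strand of chr11:98908002-98908031) and Cdt1 (plus strand of chr8:122568035-122568064) lie 124 and 32 bp downstream of the first start in the files, under Jmjd2c. The Cdc6 site lies 138 bases upstream of the RefSeq start whose promoter was searched, so its side depends on the start used.
Mcm6: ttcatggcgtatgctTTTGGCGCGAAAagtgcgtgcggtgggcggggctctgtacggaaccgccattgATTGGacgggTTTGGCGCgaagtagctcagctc
Mcm3: tgGCGGGAAAacttgggaagtTTTGGCGCc
Mcm7 upstream: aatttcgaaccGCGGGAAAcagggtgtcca
Mcm7 at the start: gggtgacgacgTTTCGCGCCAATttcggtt
Cdc6: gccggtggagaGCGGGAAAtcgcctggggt
Cdt1: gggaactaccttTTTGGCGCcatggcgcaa

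The distal site of Mcm6 and the site of Mcm5 are double matches, in which forms on opposite strands overlap by 4 bases and together span 12. At Mcm7 the match at the start runs into a CCAAT box. Over all curated genes with an entry, Jmjd2c was near 68.5% and Jmjd2a near 47.0% of the 615 genes that held E2F-type letters. Genes that lacked them stood at 40.1% and 28.9%. Some other letters showed such gaps too. Jmjd2c was near 62.6% of genes with a GC box and 21.3% of those without, and near 56.8% and 39.4% of genes with and without the E-box. For the CCAAT box the shares with and without it were close, at 41.8% and 40.3%. For the CHR letters, TTTGAA, they went the other way, at 30.3% and 43.3%. The letters describe sequence and not bound E2F. Within the genes described here, Jmjd2c was near all 6 with a match, and also near Mcm2 and Cdc45 without one.

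**Figure D3:**
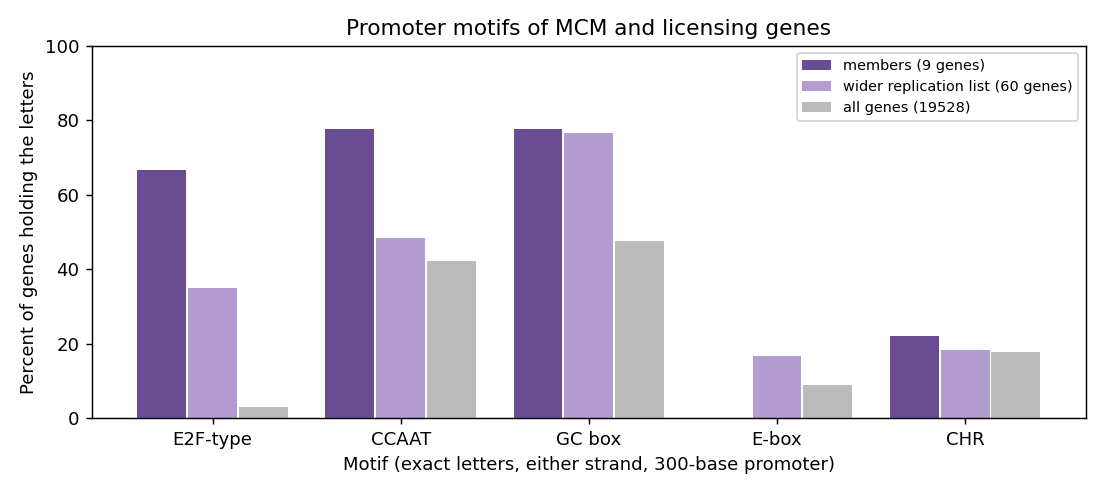
Percent of genes whose 300-base promoter holds the exact letters of each motif on either strand, for the genes described here (9 genes), the wider replication list (60 genes with an entry) and all curated genes with an entry (19528). E2F-type letters were in 6 of 9 genes, 21 of 60 of the wider list and 3.15% of all genes.

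Other promoter letters were also searched on both strands. The CCAAT box was in 7 of 9 genes (42.1% of curated genes with an entry and 48.3% of the wider list), missing in Cdc6 and Cdt1. The GC box, GGGCGG, a site of Sp-family factors, was in 7 of 9 (47.6% of genes and 76.7% of the wider list), missing in Mcm5 and Cdc6. The Cdc6 entry (chr11:98907901-98908200) begins downstream of its first start in the files, so the bases upstream of that start were not searched. The CHR letters, TTTGAA, known from genes of the G2 and M phases, were in Mcm2 and Cdc45 (17.9% of genes and 18.3% of the wider list). The E-box CACGTG, the site of Myc and relatives, was in none (8.95% of genes and 16.7% of the wider list). Shares of all promoter entries were 37.4% for CCAAT, 35.7% for the GC box, 17.9% for CHR and 7.15% for the E-box. CpG dinucleotides per promoter numbered 8 in Mcm3, 10 in Mcm10, 11 in Cdc45, 16 in Mcm2, 19 in Cdc6, 21 in Mcm6, 25 in Mcm5 and 32 in Cdt1, with 24 and 26 in the 2 entries of Mcm7. All promoters had a median of 7 and genes with Jmjd2c near a start a median of 24 (interquartile range 17 to 31). Mcm3 and Cdc45 thus had few CpG beside other genes with Jmjd2c, of which 10.3% had 11 (the count of Cdc45) or fewer. Among all promoters, Mcm3 and Cdc45 stood at the 51.4 and 58.6 percentiles.

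The genes were set beside a wider list of 77 other replication genes, among which 70 had Jmjd2c (90.9%), 48 had Jmjd2a (62.3%) and 46 had both (59.7%). The 9 of 10 and 5 of 10 seen for the MCM and licensing genes stand beside those shares, and the difference was not tested. In the origin recognition complex, which recruits Cdc6, all 7 genes had Jmjd2c and 3 had Jmjd2a as well. At Orc2 the Jmjd2a peak was 1564 bp wide and the Jmjd2c peak 1850 bp. In the same order, widths were 825 and 2269 bp at Orc6 and 371 and 1927 bp at Orc1. Regulators of licensing and relatives of the MCM genes had Jmjd2c at 9 of 11 and Jmjd2a at 5. Among these, Cul4a and Dtl, parts of the ubiquitin ligase that degrades Cdt1, carried both proteins (912 and 2352 bp at Cul4a, 525 and 2480 bp at Dtl), as did Mcmbp, which encodes an MCM-binding protein (1073 and 1907 bp). Mcmdc2 and Cul4b had neither.

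Origin firing factors had Jmjd2c at 12 of 13 and Jmjd2a at 9. Rif1 (Jmjd2a 1820 bp, Jmjd2c 1453 bp), the kinase gene Cdc7 (1325 and 1829 bp) and Ticrr (575 and 2548 bp) were the widest with both. The GINS gene Gins4 had Jmjd2a alone, in a peak of 812 bp over its start, the state also seen at Mcm10. Of 29 genes of the replication fork, 25 had Jmjd2c and 19 had Jmjd2a, led in width by the polymerase gene Pole (2563 and 2684 bp), the single-strand binding gene Rpa3 (1412 and 2061 bp) and the primase gene Prim2 (1229 and 1643 bp). Top1 had Jmjd2a alone, and the sliding clamp gene Pcna and the polymerase genes Pold1 and Pold4 had neither. All 17 E2F, pocket protein and S-phase kinase genes had Jmjd2c and 12 had Jmjd2a too, with the widest pairs at Ccne2 (2400 and 2350 bp), Rbl1 (2048 and 1997 bp) and E2f2 (970 and 2185 bp).

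**Figure D4:**
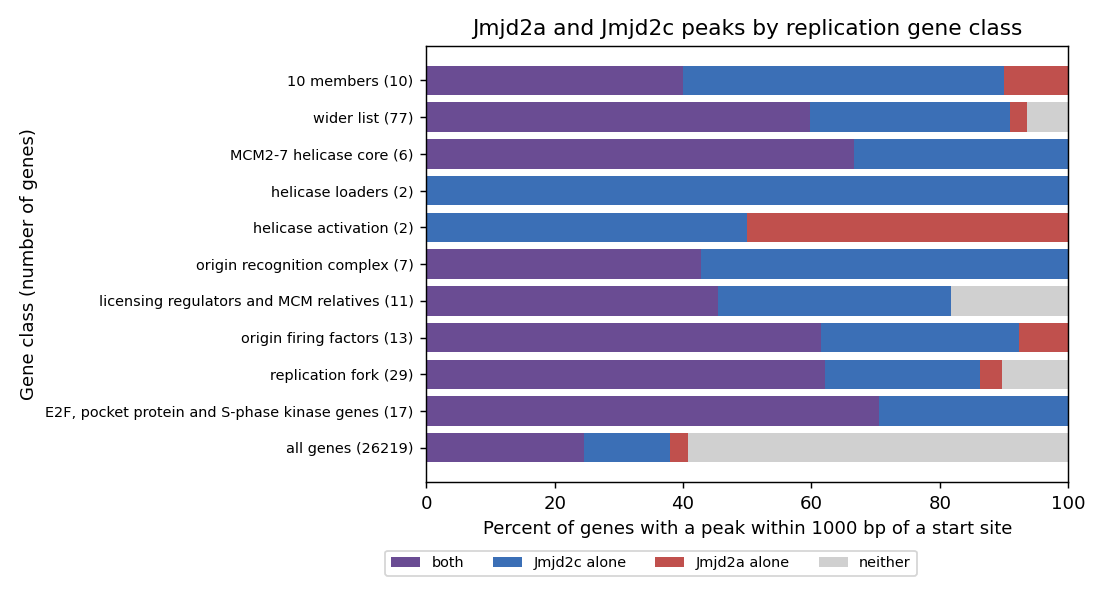
Percent of genes with both proteins, Jmjd2c alone, Jmjd2a alone or neither within 1000 bp of a start site, by class, with the number of genes in brackets. Jmjd2c was near 9 of the 10 MCM and licensing genes and 70 of the 77 genes of the wider list, and 59.3% of all genes had neither protein.

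The median position of the peaks over the 4 core genes with both proteins ran from 318.5 bp upstream to 365.5 bp downstream of the start for Jmjd2a and from 76 bp upstream to 781 bp downstream for Jmjd2c. Among the 46 genes of the wider list with both, the 5 closest to it by Euclidean distance over these edges were Dna2 (257 bp), E2f5 (303 bp), Rfc2 (415 bp), Tfdp1 (453 bp) and Rfc1 (463 bp). At Dna2, a nuclease gene, the Jmjd2a and Jmjd2c peaks were 726 and 677 bp wide, and at the clamp loader gene Rfc1 939 and 1309 bp. The 4 core genes themselves lay 318 bp (Mcm7), 336 bp (Mcm5), 435 bp (Mcm3) and 1751 bp (Mcm4) from this median position. Dna2 and E2f5 were thus nearer to it than any of them. The upstream Jmjd2a edges behind it were spread, at 7 bp (Mcm5), 20 bp (Mcm7), 617 bp (Mcm3) and 878 bp (Mcm4). At Mcm4 that peak is the one named for Prkdc. The likeness is one of called positions in lists without replicates.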

How the data were processed

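Chromatin immunoprecipitation followed by sequencing was performed by the authors. Per the submitters' processing notes, the tools were bedtools 2.25.0, Bowtie 0.12.7 and SAMtools, and the build was mm10. Caller, threshold, control and pooling of the peak lists: not given in the sources used here. The authors deposited positions and distances in bp, per the file headers, with no score and no value per library.

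Positions are printed counting from 1. The files name 12809 start sites. Where an entry joins several genes, each site went to the gene that other entries name for it, or else to the one whose RefSeq span holds it. Symbols and spans came from RefSeq GRCm38.p6. The members, the wider list and the motifs were chosen with earlier results of these data known. Named beside the 10 members are genes sharing their promoters and, per class of the wider list, up to 3 genes with both proteins and the largest summed widths, those with Jmjd2a alone and up to 5 with neither, plus the 5 closest in peak position. No significance test was made, because groups have no values. The step that measures distances was tested on simulated data. Alternatives were other windows, wider peaks, RefSeq start sites, stricter overlap, summed widths and other motif forms. Python 3.11.15, numpy 2.4.6, pandas 2.3.3 and matplotlib 3.10.9 were used.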

Additional observations from a re-analysis of the deposited data

How the results depend on the processing

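With windows of 500 and 5000 bp the counts of the 10 genes were the same as at 1000 bp. Counting only peaks that cover the start gave 3 genes with Jmjd2a and 2 with both, and 29 and 28 of the wider list, against 18.8% and 16.5% of all genes. Keeping the wider 50% of each peak list gave 3 of the 10 genes with Jmjd2a, 4 with Jmjd2c and 1 with both. In the wider list of 77 genes it gave 28 with Jmjd2a, 50 with Jmjd2c and 24 with both. The shares of all genes were 16.5%, 22.9% and 9.99% for Jmjd2a, Jmjd2c and both. Jmjd2c thus fell from 9 to 4 in the 10 genes and from 70 to 50 in the wider list. Summing all near peaks of a gene moved the median width to 712 bp for Jmjd2a and 1439 bp for Jmjd2c. RefSeq start sites gave 4 genes with Jmjd2a, 8 with Jmjd2c and 3 with both, of 9, against 30.8%, 43.0% and 27.6% of 19528 genes. These are also the counts of the 9 genes at the main setting, because only Mcm4, which had no entry, left the set. The share with both was then near that of all genes. In the wider list the counts were 35, 53 and 34 of 60. The counts with E2F-type letters (6) and with overlapping peaks (4) did not move under their alternatives, although the E2F-type forms without their first letter were in 9.57% of all promoters. The cause of these moves was not tested beyond the construction of each alternative. No paired analysis was possible because the files hold no value per library, and for the same reason no library could be left out. Calls depend on an unknown depth and threshold, so absence of a call is no evidence that the protein was absent.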
